A study of Mus musculus with 5 samples.

Results

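The genes described here are those of cholesterol synthesis and of the liver X receptors (LXRs). They are 35 genes chosen by symbol from the 21878 genes of the deposited table, with earlier results of these data known. They form a sterol synthesis arm of 19 genes, an LXR arm of 11 genes and 5 genes of cholesterol handling that belong to neither arm. All 35 were in the table, and all 35 passed the filter on low values. The measurement was RNA-seq of LPS-treated bone marrow-derived macrophages (BMDMs), macrophages grown from mouse marrow with the growth factor M-CSF. The wild-type group held 2 samples (Kdm6aF/Y, replicates 1 and 3) and the Kdm6a-deficient group held 3 samples (Kdm6aF/Y;Lyz2-Cre, replicates 1, 2 and 3). Both genotypes carry the floxed allele of Kdm6a, an X-linked gene for a histone H3 demethylase, and every sample received LPS. The wild-type mice lack Cre, so loss of Kdm6a and presence of the Lyz2-Cre allele, which acts in myeloid cells, cannot be told apart in this design.

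Cholesterol is made from acetyl-CoA through mevalonate, farnesyl diphosphate, squalene and lanosterol. When sterols in the endoplasmic reticulum are low, the transcription factor SREBP2, product of Srebf2, is released from its anchor and turns on the enzymes of this route. When sterols are high, oxysterols bind the LXRs, which turn on genes of cholesterol efflux and, through SREBP1c, of fatty acid synthesis. Macrophages, which take up cholesterol with lipoproteins and dying cells, are known for a strong LXR response.

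Levels are given in FPKM, the number of fragments of a gene divided by its transcript length in kilobases and by the mapped fragments of the sample. Depth per sample is unknown, since the table holds no counts per sample. The summed FPKM ran from 388394 to 433289, and 10641 to 10769 genes reached 1 FPKM in a sample. Each log2 fold change is a difference of log2(FPKM + 1), Kdm6a-deficient minus wild type, fitted in limma over the 10893 genes with at least 1 FPKM in at least 2 samples. A gene was called at a Benjamini-Hochberg adjusted p under 0.05 over all of these genes. By this rule 1.73% of tested genes were higher in Kdm6a-deficient samples, 2.18% were lower, and 3.91% were called in either direction. All Kdm6a-deficient samples lay above both wild-type samples in 16.7% of tested genes and below both in 19.2%. Of the 35 genes, 2 were called higher, 2 were called lower and 31 were not called. An exact permutation test of 2 against 3 samples cannot go below p = 0.1, so no single gene was tested that way.

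Kdm6a itself was at 3.72 and 2.91 FPKM in wild-type samples against 2.81, 1.77 and 2.44 FPKM in Kdm6a-deficient samples. The groups did not overlap, but the difference was not called (limma adjusted p = 0.268). FPKM over the whole gene includes exons outside the floxed part, and the source of the remaining Kdm6a reads was not tested. The 10 macrophage markers summed to 4048 to 4216 FPKM in wild-type and 4027 to 4523 FPKM in Kdm6a-deficient samples, and none was called. In the alternative fits described below, 2 macrophage markers were called higher with the replicate block. With quantile normalization, with the trend of transcript length removed or without Kdm6a-deficient sample 2, 1 was called higher. In the main fit, 5 of 11 stromal cell markers were lower and 1 was higher in Kdm6a-deficient samples. Their sum was 4973 to 5298 FPKM in wild-type against 3936 to 3977 FPKM in Kdm6a-deficient samples, and 1 was still lower without wild-type sample 1 or 3, 3 without Kdm6a-deficient sample 1 and 2 without Kdm6a-deficient sample 3. Of 7 adipocyte markers, Plin1 and Retn were listed at 0 in every sample, Adipoq was at no more than 0.264 FPKM and Lep, Cidec and Cfd at no more than 0.137 FPKM. The other, Cebpa, a transcription factor that myeloid cells also express, was at 33.8 and 36.0 FPKM in wild-type and at 25.0, 31.7 and 27.9 FPKM in Kdm6a-deficient samples, lower without overlap and not called (log2 fold change −0.30). The neutrophil marker Ctsg (1 of 8 tested) and the T cell marker Cd4 (the 1 tested) were called higher, and no B cell marker was called. Ctsg, at 0.33 and 0.65 FPKM in wild-type and 1.26, 1.46 and 1.13 FPKM in Kdm6a-deficient samples, passed the filter through the latter alone. With the filter in all 5 samples, 0 neutrophil markers were called. Of the 8 tested neutrophil markers, 5 had a log2 fold change above 0 and 3 below. The untested T or NK cell markers Cd3e, Cd3g and Klrb1c were at no more than 0.122, 0.321 and 0.197 FPKM. Nkg7, also untested, was at no more than 1.34 FPKM and overlapped. In bulk RNA, fewer cells of a type and less RNA per cell cannot be told apart.

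The Kdm6a-deficient sample 2 stood apart from its replicates, in a direction that followed transcript length. Its log2 level minus the mean of the other 2 Kdm6a-deficient samples was 0.38 for Mvk, with a transcript of 1660 bases, and −0.48 for Abca1, with 10262 bases. Across the 35 genes this difference correlated with transcript length at a Pearson r of −0.65 and a Spearman rho of −0.66. The same held across the 10564 tested genes with a length (r of −0.64 and rho of −0.64). Genes of a sample share its library and are not replicates, so these are descriptions of 1 library. Between the wild-type samples the relation was weaker, with an r of −0.20 over the 35 genes. Without this sample the 4 called genes described below remained called, with log2 fold changes of 0.58 for Nr1h3, 0.45 for Abcg1, −0.76 for Scd2 and −0.51 for Ch25h (limma adjusted p = 0.0159, 0.0281, 0.00322 and 0.0388).

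**Figure D1:**
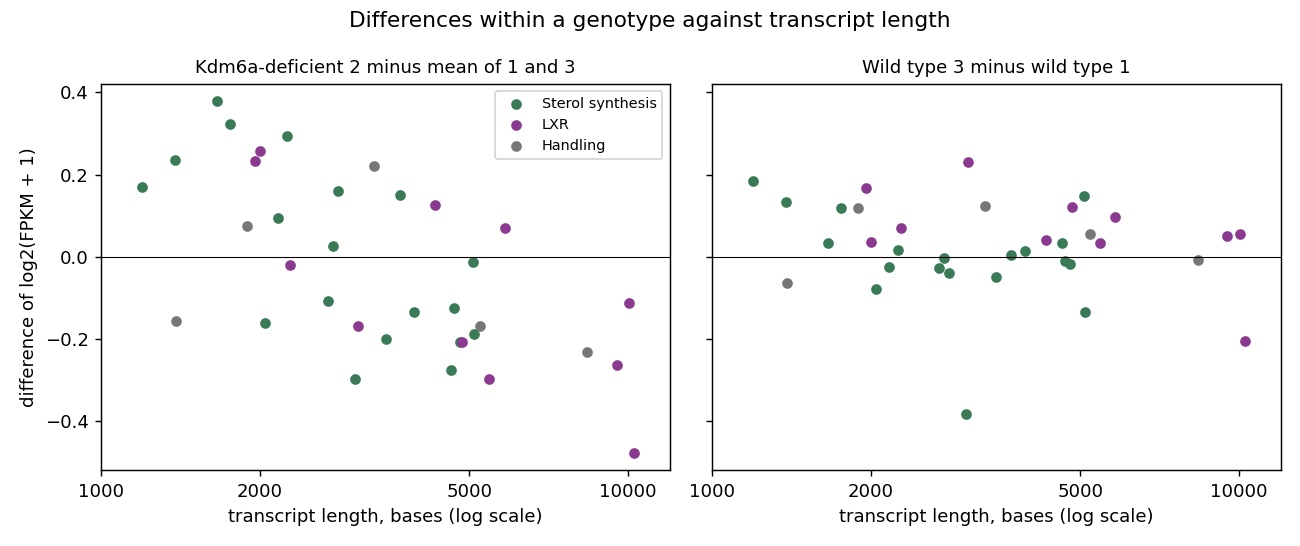
Each point is 1 of the 35 genes, plotted by transcript length in bases (log scale) and by a difference of log2(FPKM + 1) between samples of the same genotype. In the left panel, Kdm6a-deficient sample 2 minus the mean of samples 1 and 3 falls with length (r of −0.65), and in the right panel, wild type 3 minus wild type 1 shows a weaker fall (r of −0.20).

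The sterol synthesis arm held no called gene. Of its 19 genes, 18 had a log2 fold change below 0 and 1 above, with a median of −0.13 and a range from −0.24 to 0.12. The median over all tested genes was 0.0048, and 48.5% of them were below 0. By unadjusted p under 0.05 the limma fit gave 3 of these 19 genes, Cyp51, Nsdhl and Insig1, all lower, where 17.3% of all tested genes reached that level. In 11 of the 19 the Kdm6a-deficient samples all lay below the wild-type samples, and in 1 they all lay above, against 19.2% and 16.7% of all tested genes. The shifts were therefore small and mostly in the same direction, while no single gene passed the test. The log2 fold changes of Mvk, Pmvk, Mvd, Idi1, Hsd17b7 and Srebf2 rested on single samples for their sign and turned above 0 when 1 of the 5 was left out. The genes of an arm share samples and regulators, so their number is not a number of independent observations.

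Srebf2, the master regulator of the arm, was at 30.62 and 34.02 FPKM in wild-type samples against 30.50, 30.79 and 31.67 FPKM in Kdm6a-deficient samples. The groups overlapped, with a log2 fold change of −0.06 (95% interval −0.23 to 0.12, limma adjusted p = 0.771). Insig1, which holds SREBP in the endoplasmic reticulum and is itself an SREBP target, was at 31.07 and 30.45 FPKM in wild-type and at 28.04, 25.64 and 27.42 FPKM in Kdm6a-deficient samples. Its groups did not overlap, and the log2 fold change of −0.18 was not called (95% interval −0.35 to −0.01, limma adjusted p = 0.256). Stard4, a carrier of cholesterol between membranes, averaged 10.2 ± 0.734 FPKM in wild-type (SD, n = 2) against 9.01 ± 0.736 FPKM in Kdm6a-deficient samples (SD, n = 3).

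Promoter sequence was compared next, because the enzymes of this arm are regulated together. RefSeq windows of the 250 bases before the transcription start (build GRCm38.p6) were found by GeneID for 15 of 19 synthesis genes, 8 of 11 LXR genes and 4 of 5 handling genes. A gene with several listed starts was counted if any of its windows held the match, among members and among all genes. A CCAAT box is the site of NF-Y, which works beside SREBP. It was present on either strand in 14 of 15 synthesis genes, 4 of 8 LXR genes and 3 of 4 handling genes. Of all 27025 genes with a window, 37.5% had it. A GC box of the Sp1 type, GGGCGG, was present in 14 of 15, 4 of 8 and 2 of 4 genes, against 35.4% of all genes. The sterol element TCACNCCAC, searched on both strands, was found in 1 synthesis window, that of Hmgcs1, and in 1.22% of all genes. Motifs were searched as exact words, so a site that differs by a base was not counted. A direct repeat of AGGTCA spaced by 4 bases, the idealised LXR site, was in no member's window and in 0.0148% of all genes. The searched motifs do not overlap one another in the windows printed here. A match is a description of these letters and not a measured binding site.

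The window of Hmgcs1 is shown because it holds all 3 kinds of match, and that of Srebf2 because it is the arm's regulator. Capitals mark the matches on either strand, so that ATTGG is the CCAAT box and CCGCCC the GC box of the other strand.
Hmgcs1, chr13:119690101-119690350, plus strand: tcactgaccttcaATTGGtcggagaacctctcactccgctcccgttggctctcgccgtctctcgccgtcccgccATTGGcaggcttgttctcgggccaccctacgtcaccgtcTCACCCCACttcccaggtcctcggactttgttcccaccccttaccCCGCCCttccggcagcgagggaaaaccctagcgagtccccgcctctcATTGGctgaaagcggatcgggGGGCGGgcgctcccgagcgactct
Srebf2, chr15:82147019-82147268, plus strand: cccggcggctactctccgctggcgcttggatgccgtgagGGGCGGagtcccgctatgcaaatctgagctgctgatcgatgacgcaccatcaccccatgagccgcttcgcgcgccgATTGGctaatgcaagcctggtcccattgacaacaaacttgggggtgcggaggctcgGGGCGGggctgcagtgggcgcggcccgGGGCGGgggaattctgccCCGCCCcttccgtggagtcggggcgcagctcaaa
The Hmgcs1 window has its sterol element beginning 137 bases before the start, with CCAAT boxes at 237, 176 and 45 bases and GC boxes at 92 and 24 bases. The Srebf2 window has 1 CCAAT box at 135 bases and 4 GC boxes at 211, 79, 52 and 34 bases. It also holds tcaccccat, which differs from the sterol element in the last base and was not counted.

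Of the enzymes of the mevalonate stage, Acat2 and Hmgcs1 did not overlap between genotypes and the others did. Acat2 and Hmgcs1 make and extend acetoacetyl-CoA, the first carbon units of the route. Acat2 had the largest log2 fold change of the arm, −0.24 (95% interval −0.52 to 0.04, limma adjusted p = 0.363). It was at 9.08 and 9.19 FPKM in wild-type samples against 6.53, 8.83 and 7.53 FPKM in Kdm6a-deficient samples, which did not overlap. Of its 50-base transcript windows, 39.1% also occur in other genes, mostly Acat3, so its level is uncertain where reads could be split. Hmgcs1 was at 38.83 and 37.49 FPKM in wild-type and at 36.67, 30.67 and 34.20 FPKM in Kdm6a-deficient samples (log2 fold change −0.17, limma adjusted p = 0.385), again without overlap.

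Mvk, Pmvk and Mvd, which phosphorylate and decarboxylate mevalonate, had log2 fold changes of −0.03, −0.04 and −0.0091. All 3 have short transcripts, and each was higher in Kdm6a-deficient sample 2 than in its replicates. Idi1, the isomerase of isopentenyl diphosphate, averaged 7.34 ± 1.56 FPKM in wild-type (SD, n = 2) against 6.58 ± 0.908 FPKM in Kdm6a-deficient samples (SD, n = 3). Fdps, which makes farnesyl diphosphate, averaged 37.4 ± 2.50 and 34.2 ± 3.92 FPKM in the same order. These 5 genes overlapped between genotypes. Other genes share 17.7% of the 50-base windows of Idi1 and 26.2% of those of Fdps.

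The enzymes from squalene to cholesterol held most of the genes without overlap. Msmo1, a C4-demethylating oxidase, had the highest level of the arm, with 59.14 and 55.99 FPKM in wild-type samples and 52.38, 48.19 and 55.60 FPKM in Kdm6a-deficient samples. Its lowest wild-type and highest Kdm6a-deficient values differed by less than the spread within either genotype (log2 fold change −0.14, limma adjusted p = 0.438). Cyp51, the lanosterol demethylase, was at 25.06 and 25.33 FPKM in wild-type and at 22.87, 20.14 and 21.56 FPKM in Kdm6a-deficient samples. Nsdhl, a sterol dehydrogenase, was at 12.33 and 12.11 FPKM in wild-type and at 9.78, 10.78 and 10.30 FPKM in Kdm6a-deficient samples. Neither was called, with log2 fold changes of −0.22 (adjusted p = 0.208) and −0.23 (limma adjusted p = 0.192).

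Fdft1 and Sqle make and oxidise squalene, and Lss closes the rings of lanosterol. Their log2 fold changes were −0.14, −0.09 and −0.17, each without overlap between genotypes and none called. Fdft1 shares 774 exonic bases with Ctsb on the other strand, and the strand setting of the authors' counting is not given in the sources used here. Sc5d, a desaturase of the last steps, had a log2 fold change of −0.12 without overlap, and Hsd17b7, a ketone reductase, −0.09 with overlap. Dhcr7, which reduces the last double bond of one branch of the route, was the exception in direction. It was at 9.09 and 8.82 FPKM in wild-type and at 9.15, 10.63 and 9.68 FPKM in Kdm6a-deficient samples, without overlap (log2 fold change 0.12, limma adjusted p = 0.567).

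**Figure D2:**
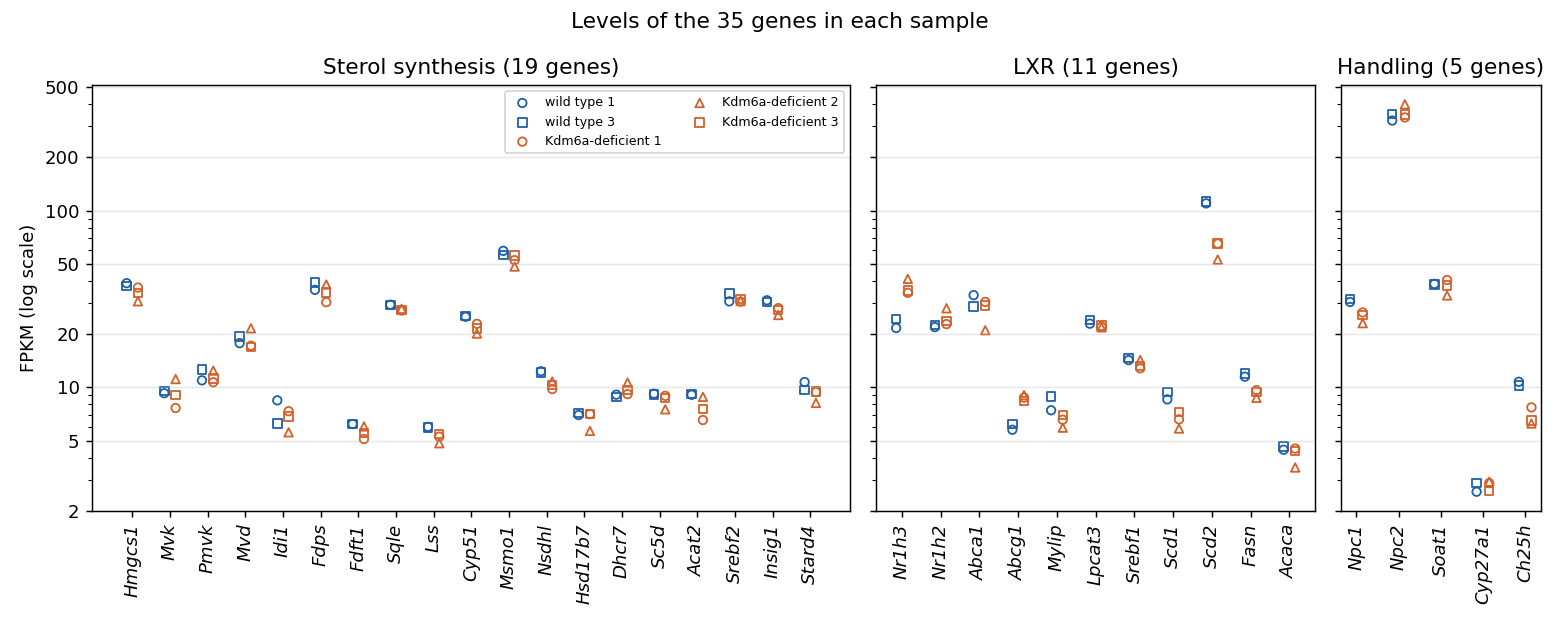
FPKM (log scale) of the 35 genes in each of the 5 samples, with wild type in blue and Kdm6a-deficient in orange, and the marker shape giving the replicate. Genotypes lie close in the sterol synthesis panel, whereas Nr1h3 and Abcg1 are higher and Scd2 and Ch25h lower in all 3 Kdm6a-deficient samples.

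In the LXR arm, 2 of 11 genes were called higher, 1 was called lower and 8 did not pass the test, against 1.73% higher and 2.18% lower over all tested genes. Log2 fold changes ran from −0.86 to 0.65 with a median of −0.12, and 8 of the 11 lay below 0. The Kdm6a-deficient samples all lay above the wild-type samples in 3 genes and below them in 5, against 16.7% and 19.2% of all tested genes. The receptor Nr1h3 and the efflux pump Abcg1 rose, and the lipogenic gene Scd2 fell, so the called genes of this arm moved in both directions.

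Nr1h3 (GeneID 22259) encodes LXRα, the LXR known from liver, fat and macrophages. Its level was 21.65 and 24.43 FPKM in wild-type samples and 34.24, 41.06 and 35.37 FPKM in Kdm6a-deficient samples. Every Kdm6a-deficient sample was above both wild-type samples, and the means stood at a ratio of 1.60. The log2 fold change was 0.65 (standard error, SE, 0.10, limma adjusted p = 0.0157). The adjusted p missed the threshold when wild-type sample 1 (0.0762), wild-type sample 3 (0.0647) or Kdm6a-deficient sample 3 (0.0747) was left out, with log2 fold changes from 0.57 to 0.74. It was 0.144 when genes of low level were kept in the fit. Its promoter window is shown as that of a called gene with none of the 4 motifs, taken at the first of 2 listed starts.
Nr1h3, chr2:91195117-91195366, minus strand: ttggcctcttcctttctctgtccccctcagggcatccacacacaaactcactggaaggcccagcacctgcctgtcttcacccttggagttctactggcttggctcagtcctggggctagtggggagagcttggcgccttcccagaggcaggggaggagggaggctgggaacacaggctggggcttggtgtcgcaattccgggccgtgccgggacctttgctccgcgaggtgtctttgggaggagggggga
Nr1h2, which encodes the widely expressed LXRβ, was at 21.91 and 22.47 FPKM in wild-type and at 22.78, 28.00 and 23.75 FPKM in Kdm6a-deficient samples. These groups did not overlap, but the log2 fold change of 0.15 was not called (95% interval −0.08 to 0.38, limma adjusted p = 0.514).

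Of the efflux pumps, Abcg1 was called and Abca1 was not. Abcg1 (GeneID 11307), which passes cholesterol to HDL, was at 5.76 and 6.22 FPKM in wild-type samples against 8.75, 9.03 and 8.37 FPKM in Kdm6a-deficient samples. All 3 Kdm6a-deficient samples lay above the wild-type samples, at 1.46 times their mean. Its log2 fold change was 0.48 (SE 0.081, limma adjusted p = 0.0238). Without wild-type sample 1, wild-type sample 3, Kdm6a-deficient sample 1 or Kdm6a-deficient sample 3 the adjusted p was 0.127, 0.133, 0.0858 and 0.0978, and 0.0786 when low genes were kept. Abca1, which passes cholesterol to lipid-poor apolipoprotein A-I, was at 33.22 and 28.70 FPKM in wild-type and at 30.41, 21.04 and 28.96 FPKM in Kdm6a-deficient samples. It overlapped between genotypes (log2 fold change −0.21, 95% interval −0.58 to 0.15, limma adjusted p = 0.565), and its lowest value was that of Kdm6a-deficient sample 2. The difference between the responses of the pumps was not tested.

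The lipogenic genes of the LXR arm all had log2 fold changes below 0. Scd2 (GeneID 20250), a stearoyl-CoA desaturase that makes monounsaturated fatty acids, was the most abundant gene of the arm and the one with the largest change. It was at 109.73 and 112.37 FPKM in wild-type samples against 64.98, 52.79 and 65.21 FPKM in Kdm6a-deficient samples. The groups lay far apart, with Kdm6a-deficient samples at 0.549 of the wild-type mean. The log2 fold change was −0.86 (SE 0.10, limma adjusted p = 0.00665), and the value with Kdm6a-deficient sample 2 left out is given above. It was no longer called when wild-type sample 3 was left out (adjusted p = 0.0572) or low genes were kept (0.107). The authors' own group means of normalised counts, which include a wild-type sample not analysed here, were 10646 and 5858.

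Scd1, the related desaturase next in the family, was at 8.55 and 9.39 FPKM in wild-type and at 6.59, 5.85 and 7.24 FPKM in Kdm6a-deficient samples. It did not overlap and was not called, with a log2 fold change of −0.40 (limma adjusted p = 0.0926) that passed with the trend of transcript length removed (adjusted p = 0.0420). Fasn, the fatty acid synthase, was at 11.49 and 11.99 FPKM in wild-type and at 9.64, 8.72 and 9.40 FPKM in Kdm6a-deficient samples (log2 fold change −0.31, limma adjusted p = 0.0906), again without overlap. Acaca, which makes the malonyl-CoA that Fasn uses, averaged 4.53 ± 0.135 FPKM (SD, n = 2) against 4.12 ± 0.530 FPKM (SD, n = 3) with overlap, and shares 30.4% of its 50-base windows with other genes. Srebf1, the gene of SREBP1, was at 14.25 and 14.68 FPKM in wild-type and at 12.81, 14.26 and 13.17 FPKM in Kdm6a-deficient samples. Its groups overlapped, with a log2 fold change of −0.10 (95% interval −0.29 to 0.08, limma adjusted p = 0.581).

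The other LXR targets were not called. Mylip, a ubiquitin ligase for lipoprotein receptors, was at 7.42 and 8.88 FPKM in wild-type and at 6.56, 5.91 and 6.98 FPKM in Kdm6a-deficient samples. The groups did not overlap (log2 fold change −0.29, limma adjusted p = 0.226). Lpcat3, which places polyunsaturated fatty acids in phospholipids, averaged 23.5 ± 0.852 FPKM (SD, n = 2) and 22.1 ± 0.244 FPKM (SD, n = 3), also without overlap.

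**Figure D3:**
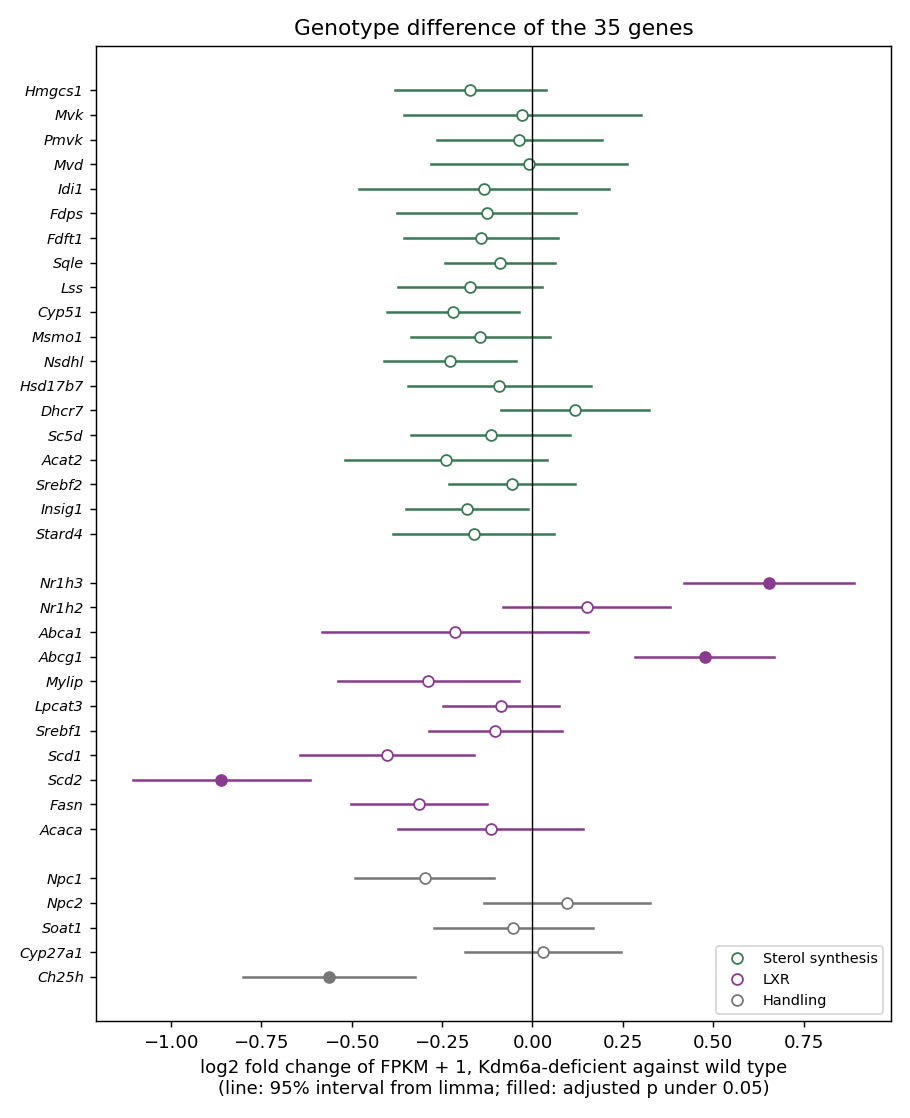
Log2 fold change of FPKM + 1, Kdm6a-deficient against wild type, with its 95% interval from limma, for the 35 genes in their 3 groups. Filled points are the called genes Nr1h3 (0.65), Abcg1 (0.48), Scd2 (−0.86) and Ch25h (−0.56), while the sterol synthesis genes lie between −0.24 and 0.12.

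Set side by side, with the 2 receptor genes counted in the LXR arm, the arms had nearly the same average shift and a different spread. The mean log2(FPKM + 1) over the 19 synthesis genes was 4.02 ± 0.0030 (SD, n = 2) in wild-type and 3.90 ± 0.019 (SD, n = 3) in Kdm6a-deficient samples, a difference of −0.12. Over the 11 LXR genes it was 4.09 ± 0.045 and 3.98 ± 0.046, a difference of −0.10. Relative to the wild-type mean, the Kdm6a-deficient samples 1, 2 and 3 were at −0.14, −0.11 and −0.10 in the synthesis arm and at −0.08, −0.15 and −0.07 in the LXR arm. In both arms every Kdm6a-deficient sample was below both wild-type samples. The 5 lipogenic genes of the LXR arm were at −0.32, −0.46 and −0.30 in these samples, with the wild-type samples at −0.03 and 0.03. The average of the LXR arm is thus taken over called rises of Nr1h3 and Abcg1 and over the lower lipogenic genes. Of its 11 genes, 8 had log2 fold changes below 0 and 3 above, the receptors Nr1h3 (0.65) and Nr1h2 (0.15) and the target Abcg1 (0.48). An average over the targets without the receptors was not taken. These averages are descriptions of chosen genes and carry no test.

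**Figure D4:**
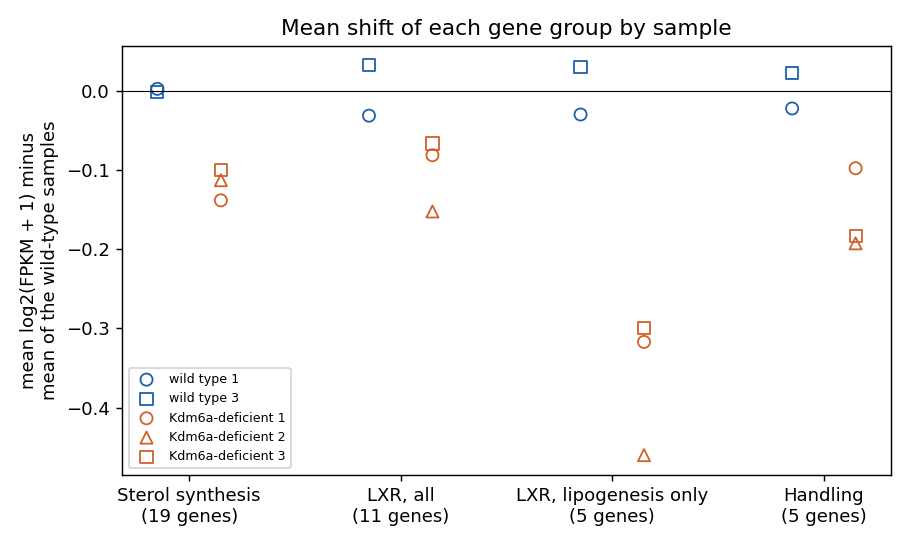
Mean log2(FPKM + 1) of each gene group in each sample, minus the mean of the wild-type samples, for the synthesis arm, the LXR arm, its 5 lipogenic genes and the handling genes. The Kdm6a-deficient samples lie between −0.14 and −0.10 in the synthesis arm and between −0.46 and −0.30 in the lipogenic genes.

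Of the 5 handling genes, 1 was called lower and 4 were not called, against 1.73% higher and 2.18% lower over all tested genes. Their median log2 fold change was −0.05. Ch25h (GeneID 12642), which makes 25-hydroxycholesterol, an oxysterol that restrains SREBP processing, fell. It was at 10.75 and 10.25 FPKM in wild-type samples against 7.70, 6.24 and 6.49 FPKM in Kdm6a-deficient samples. The groups did not overlap, and the Kdm6a-deficient mean was 0.649 of the wild-type mean. The log2 fold change was −0.56 (SE 0.10, limma adjusted p = 0.0296). It was not called without wild-type sample 1 (adjusted p = 0.117), wild-type sample 3 (0.154) or Kdm6a-deficient sample 3 (0.140), nor when low genes were kept (0.155). Its window, shown as that of the called oxysterol gene, had none of the 4 motifs.
Ch25h, chr19:34475149-34475398, minus strand: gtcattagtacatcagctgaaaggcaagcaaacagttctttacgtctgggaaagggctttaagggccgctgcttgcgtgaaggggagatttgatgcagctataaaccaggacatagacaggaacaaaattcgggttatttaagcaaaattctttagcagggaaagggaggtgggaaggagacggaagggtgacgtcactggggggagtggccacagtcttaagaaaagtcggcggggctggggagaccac

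Npc1 and Npc2 carry cholesterol out of the lysosome. Npc1 was at 30.38 and 31.59 FPKM in wild-type and at 26.52, 23.06 and 25.57 FPKM in Kdm6a-deficient samples, without overlap (log2 fold change −0.30, limma adjusted p = 0.112). It passed with the trend of transcript length removed (adjusted p = 0.0464). Npc2 was the most abundant of the 35 genes, with 322.80 and 351.74 FPKM in wild-type and 335.93, 398.79 and 348.45 FPKM in Kdm6a-deficient samples, which overlapped (log2 fold change 0.10, limma adjusted p = 0.705). Soat1, which esterifies cholesterol for storage, averaged 38.3 ± 0.164 FPKM (SD, n = 2) and 37.0 ± 3.72 FPKM (SD, n = 3). Cyp27a1, which makes 27-hydroxycholesterol, was the lowest of the 35, at 2.72 ± 0.218 FPKM (SD, n = 2) and 2.80 ± 0.179 FPKM (SD, n = 3). Both overlapped between genotypes.

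Further genes of these pathways, listed by role, were read in the same fit. Of 10 further genes of sterol synthesis, 12 genes of SREBP processing and 16 tested genes of sterol transport and storage, none was called, with medians of 0.03, −0.03 and 0.02. By unadjusted p under 0.05 limma gave 1, 3 and 2 of them, against 17.3% of all tested genes. The largest difference among the first of these lists was Por, the electron donor of Cyp51 and Sqle, with 76.2 and 87.2 FPKM in wild-type and 97.8, 112.9 and 96.7 FPKM in Kdm6a-deficient samples (log2 fold change 0.32, limma adjusted p = 0.149). Scap, the sterol-sensing escort of SREBP, had a log2 fold change of 0.01, and Insig2, a relative of Insig1, of −0.29 (limma adjusted p = 0.179).

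Of 16 tested genes of fatty acid synthesis, 2 were lower, 0 were higher and 14 did not pass the test, while unadjusted p under 0.05 in limma gave 3 higher and 4 lower. Over all tested genes 1.73% were called higher, 2.18% were called lower and 17.3% reached that unadjusted level. This list was chosen with earlier results of these data known, so its counts do not measure an enrichment. The replicate block gave 3 higher and 2 lower genes of this list, and leaving out Kdm6a-deficient sample 2 or removing the trend of transcript length gave 1 higher and 2 lower. Fads2, the delta-6 desaturase of polyunsaturated fatty acids, was at 18.59 and 17.67 FPKM in wild-type and at 10.48, 10.09 and 10.13 FPKM in Kdm6a-deficient samples. Its groups lay far apart (log2 fold change −0.77, SE 0.072, limma adjusted p = 0.0028), and it was called with each sample left out. Fads1, the delta-5 desaturase, was at 32.66 and 34.33 FPKM in wild-type and at 25.52, 26.83 and 24.76 FPKM in Kdm6a-deficient samples. It had no overlap (log2 fold change −0.37, limma adjusted p = 0.0382). Its adjusted p ran from 0.112 to 0.349 when wild-type sample 1, wild-type sample 3, Kdm6a-deficient sample 1 or Kdm6a-deficient sample 3 was left out, and was 0.0948 when low genes were kept.

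Of 12 tested partners and further targets of the LXRs, 2 were higher, 1 was lower and 9 did not pass the test. Over all tested genes 1.73% were called higher and 2.18% were called lower. The choice of this list was also made with earlier results of these data known, so its counts do not measure an enrichment of LXR targets. With the replicate block, 3 genes of this list were higher and 3 were lower. Cd5l, a secreted inhibitor of apoptosis in macrophages and an LXR target in mice, was at 27.27 and 27.07 FPKM in wild-type and at 114.5, 127.1 and 120.0 FPKM in Kdm6a-deficient samples. It had the largest change of any gene listed here, with a log2 fold change of 2.11 (limma adjusted p = 5.66e-05). Lpl, the lipoprotein lipase, was at 150.6 and 151.8 FPKM in wild-type and at 275.4, 275.9 and 273.6 FPKM in Kdm6a-deficient samples (log2 fold change 0.86, limma adjusted p = 0.00124). Arl4c, a small GTPase and LXR target, moved the other way, with 19.36 and 21.33 FPKM in wild-type and 11.42, 11.25 and 11.53 FPKM in Kdm6a-deficient samples (log2 fold change −0.78, limma adjusted p = 0.00283). None of the 3 overlapped between genotypes, and each was called with any sample left out. Rxra, the partner receptor of the LXRs, had a log2 fold change of 0.0045, and Pltp, a phospholipid transfer protein, of −0.19 (limma adjusted p = 0.534).

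Lpl, Scd2 and the desaturases are also made by adipocytes and stromal cells. Of the stromal cell markers given above, 5 of 11 were called lower, and 3 with the filter in all 5 samples, which Lum does not pass. Cxcl12 was called higher (log2 fold change 0.54) and 5 were not called, Col3a1 (−0.04) and Postn (0.21) among them. The largest fall was that of Dcn, at 30.5 and 30.0 FPKM in wild-type and at 11.9, 10.9 and 11.3 FPKM in Kdm6a-deficient samples. The 4 tested endothelial markers of 6 summed, with the other two, to 23.0 to 23.4 FPKM in wild-type and 12.3 to 15.2 FPKM in Kdm6a-deficient samples, and Cdh5 among them was called lower. Of the adipocyte markers, 6 of 7 were at or near 0, and Cebpa, given above, was lower without overlap. The part of stromal and endothelial RNA in the differences of the 35 genes was not tested.

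**Figure D5:**
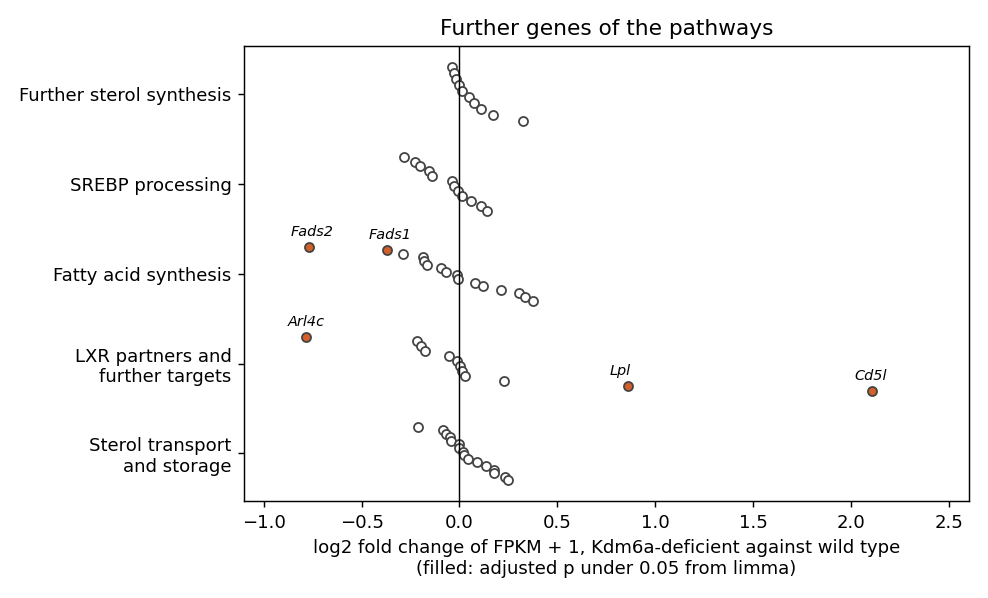
Log2 fold change of FPKM + 1, Kdm6a-deficient against wild type, for the tested genes of 5 further lists, 1 row a list, with filled points called in limma. Cd5l (2.11) and Lpl (0.86) lie to the right and Fads2 (−0.77), Fads1 (−0.37) and Arl4c (−0.78) to the left, and no gene of the other lists is filled.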

How the data were processed

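RNA-seq of 2 wild-type and 3 Kdm6a-deficient BMDM samples was analysed, grouped by the genotype in the sample labels. Per the study's methods, the authors pooled RNA before library construction, aligned the reads with TopHat and estimated FPKM with Cufflinks (versions not given in the sources used here). Bowtie 0.12.2 and the builds mm8 and mm9 stand in the submitters' processing notes. The labels and the methods name different library kits. No source says that replicates came from separate mice, so the p-values reflect the spread of these samples alone, and this may be technical. The deposited signal values, 1 normalised count mean per genotype, are the authors' means, and their steps show 3 samples per genotype, so 1 wild-type sample in them is not analysed here. The authors' fold changes and p-values in the same table were not used.

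The design allowed for counts or FPKM, and the values were FPKM. limma-trend (limma 3.58.1, R 4.3.3) was fitted on log2(FPKM + 1), which understates changes of low genes, for genes with at least 1 FPKM in at least 2 samples. Of 21878 genes, 5665 were at 0 in all samples. The fit held all 5 samples without a block, and its steps were tested on simulated data. The members and lists were chosen with earlier results of these data known. Values per sample were given for called members, for the largest change and the highest level in each group, for the 4 regulators and, added after the values were seen, for other members. Up to 4 called genes of each further list were named, and others were chosen after their values were seen.

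The alternatives tried were no filter on low values, 0.1 FPKM as pseudocount, a filter in all 5 samples, a replicate block, quantile normalization, median of ratios scaling, each sample left out and, added after seeing the data, removal of a lowess trend (span 0.3) with transcript length. Lengths and shared 50-base windows came from GENCODE vM21, and promoter windows from RefSeq GRCm38.p6, matched by GeneID. Python 3.11.15 with matplotlib 3.10.9 and pandas 2.3.3, and the R package data.table (version 1.17.8), were also used.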

Additional observations from a re-analysis of the deposited data

How the results depend on the processing

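The sterol synthesis arm had 0 called genes in every alternative run, by limma in each. With no filter on low values the called genes fell to 0 in the LXR arm and 0 among the handling genes, and all called genes went from 188 higher and 238 lower to 75 and 131. Leaving out each sample in turn gave 0 to 0 called synthesis genes, 0 to 3 called LXR genes and 0 to 1 called handling genes, and medians of −0.15 to −0.10, −0.17 to −0.081 and −0.12 to 0.0040 in that order. Without wild-type sample 3 all calls fell to 46 higher and 35 lower, without wild-type sample 1 they were 184 and 81, without Kdm6a-deficient sample 1 116 and 117, without sample 3 55 and 62, and without sample 2 they rose to 281 and 397. A fit without a wild-type sample assumes that the lone one varies like the other genotype. The log2 fold changes that changed sign when a sample was left out ranged from −0.15 to 0.091 for Mvk, −0.13 to 0.056 for Pmvk, −0.12 to 0.051 for Mvd, −0.32 to 0.059 for Idi1, −0.14 to 0.00054 for Hsd17b7, −0.13 to 0.017 for Srebf2, −0.12 to 0.024 for Soat1 and −0.031 to 0.089 for Cyp27a1. With the replicate block, which leaves Kdm6a-deficient sample 2 without a partner, the medians were −0.10 for the synthesis arm and 0.0040 for the handling genes, Hsd17b7 turned to 0.00054 and Soat1 to 0.024, Scd1 was called (adjusted p = 0.0435), and all calls rose to 436 and 560. Deviations of same-numbered samples correlated at 0.43 for number 1 and −0.14 for number 3, and with 2 wild-type samples, whose deviations mirror each other, this does not settle whether the numbers pair the samples. With the trend of transcript length removed, an alternative chosen after seeing the data, 2 handling genes were called, their median was −0.0037, Soat1 turned to 0.0098 and Cyp27a1 to −0.0037, and all calls rose to 354 and 453. The cause of these changes was not tested. The edgeR quasi-likelihood fit, planned for counts per sample, was not run on FPKM, and depth per sample is unknown.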

Other observations

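Fads3, a gene of the same family as Fads1 and Fads2 that was on no list and was looked up after their values were seen, was at 31.46 and 33.06 FPKM in wild-type and at 23.32, 25.82 and 25.15 FPKM in Kdm6a-deficient samples. Its log2 fold change was −0.37 (limma adjusted p = 0.0448). Of the other stearoyl-CoA desaturase genes, Scd3 was at no more than 0.0243 FPKM and Scd4 at no more than 0.158 FPKM in any sample, so neither was tested.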
